A study of Homo sapiens with 2 samples.

Results

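The ETV6 gene body on chromosome 12 held 10 of the 315787 peaks listed for tagged ETV6 in Reh cells. Members were chosen by position, as all peaks with a summit between 11802788 and 12048325 of hg19, an interval of 245.5 kb, and the 300 kb on each side served as the local comparison, with 25 peaks before the gene and 7 after it. The gene was picked with its fold enrichments already known, so position, height and width are given here as descriptions with no test. Reh, an established cell line from a pre-B leukaemia, carries the t(12;21) translocation. Cells received 200 ng of virus made from the vector pCCL, for ETV6 with an HA epitope tag (ETV6-HA) or for untagged ETV6 (ETV6), with 8 µg/mL polybrene, and were kept for 2 weeks. Both lines were put through anti-HA beads, the untagged line being the negative control. The design speaks of triplicates, but each arm is 1 pool in the titles. The promoter of the vector is not given in the sources used here. Only a peak list of the tagged pool was analysed, so there is no replicate spread and no comparison of the arms by test.

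ETV6, also called TEL, is a transcription factor of the ETS family and acts mainly as a repressor. It joins other ETV6 molecules through a pointed domain near its start and binds DNA through an ETS domain near its end, at sites built on the letters GGAA. The pointed domain is encoded by the third and the fourth exons and the ETS domain by the sixth, the seventh and the eighth. In t(12;21) the break falls in the intron after the fifth exon, and the first part of ETV6 is joined to RUNX1. A vector that expresses ETV6 usually carries the coding sequence without introns, whereas the chromosome holds the exons far apart. Whether this vector holds introns is not given in the sources used here.

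The members, in order along the gene, are numbered here as peaks 1 to 10. The value called pileup is the number of reads stacked at the summit. The fold enrichment is the authors' ratio of that pileup to the local background at the same place, and q is the caller's false discovery estimate. All peak positions are hg19, counted from 1.

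Peak 1 lay at the very start of the gene, at chr12:11802980-11803077, from 192 to 289 bp after the first base of the interval. It was 98 bp wide, with its summit at 11803061, a pileup of 13 reads, a fold enrichment of 2.65 and a −log10 q of 1.33. Its height was ordinary for the list, where the lowest pileup was 12 reads. Outside the gene body 82953 peaks had the same 13 reads over the same background as peak 1, 4.29 reads, the level most of the list shares (called the shared background here). Their median width was 78 bp, and 73.7% of them were narrower than peak 1.

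The 250 bases before the ETV6 start in RefSeq (GRCh38.p14, chr12:11649424-11649673, plus strand) are shown because peak 1 is the only member next to the gene start. They were taken by the gene start and not from the bases under peak 1. Capitals mark the ETS core GGAA, or TTCC where the core is on the other strand.

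ETV6 promoter: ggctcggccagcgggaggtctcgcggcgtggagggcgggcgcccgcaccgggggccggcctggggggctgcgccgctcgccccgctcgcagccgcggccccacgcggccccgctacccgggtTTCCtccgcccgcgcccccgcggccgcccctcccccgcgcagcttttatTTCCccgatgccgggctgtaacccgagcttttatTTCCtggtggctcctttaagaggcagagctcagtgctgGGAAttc

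The core occurred 4 times, 1 time on the plus strand and 3 times on the minus strand. It was found in 92.7% of 35116 RefSeq promoter windows of the same length, with a median of 3 matches. The longer site CGGAAG, which contains the core, was found on neither strand here and in 16.5% of those windows. G and C made up 74.4% of the ETV6 window, against a median of 58% over all windows. The window is in another build than the peaks, and the RefSeq gene spans 245704 bases against 245538 in the interval used here, so peak 1 was not placed relative to it. The sequences under the members, peak 1 included, were not analysed here.

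Of the 10 members, 7 stood far above everything around them, with fold enrichments from 33.5 to 469. A fold of at least 30 was reached by 12 of 315787 peaks in the whole list, or 0.0038%, and by 7 of 15026 on chromosome 12, or 0.0466%. All 7 on chromosome 12 were in the ETV6 gene body. The gene was picked for these folds, so the contrast is a description. The limit of 30 cut no group in the gene body, since the lowest tall member had 33.5 and the next member 5.86. In the list as a whole the peaks nearest to the limit had 30.5 (chr4:77439458-77439856) and 29.5 (chr7:100396631-100397220).

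Peak 2 was the first tall member, at chr12:11905360-11905534, 102.7 kb from the gene start. It was 175 bp wide, had its summit at 11905447 and reached 699 reads, a fold of 132. No peak was listed in the 102 kb between peaks 1 and 2.

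Peak 4, at chr12:11992051-11992264, was 214 bp wide with its summit at 11992154. Its pileup of 1845 reads was the second highest of the gene body, and its fold of 349 was the second largest of the list. Peak 5 followed after 14.1 kb, at chr12:12006333-12006516, with a width of 184 bp, a summit at 12006421, 1202 reads and a fold of 228. Both were taller than peak 2, with widths 39 and 9 bp above its own, in that order.

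Peak 6, at chr12:12022335-12022925, was both the tallest and the widest member. It was 591 bp wide, with its summit at 12022711 and a pileup of 8853 reads, the highest of the list. Its fold was 469. The pileup was 4.8 times that of peak 4 and the width 2.76 times. Outside the gene body the highest pileup was close to it, at 8697 reads, over a background above the shared level. Summit heights above background, added over all 10 members, came to 14117 reads, of which peak 6 gave 62.6%. A summit height is not the number of reads in a peak, which was not counted.

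The last 3 tall members all ended within 10.8 kb of the gene's end. Peak 8, at chr12:12037358-12037543, was 186 bp wide with its summit at 12037449, 1104 reads and a fold of 209. Peak 9 began 1.3 kb further on, at chr12:12038843-12038968, and was 126 bp wide with its summit at 12038927, 176 reads and a fold of 33.5. Peak 10, at chr12:12043858-12043992, was 135 bp wide with its summit at 12043939, 236 reads and a fold of 44.8. Peaks 9 and 10 were the lowest and the narrowest of the 7, and from the end of peak 10 to the end of the gene, 4.33 kb, no peak was listed.

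Along the gene the tall members were highest in the middle of their row, at peak 6, and lower in the 3 that followed. They did not follow distance evenly, because peak 5 was lower than peak 4 and peak 9 lower than peak 10. Among the 7 tall members the lowest and the highest pileup differed 50.3-fold.

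**Figure D1:**
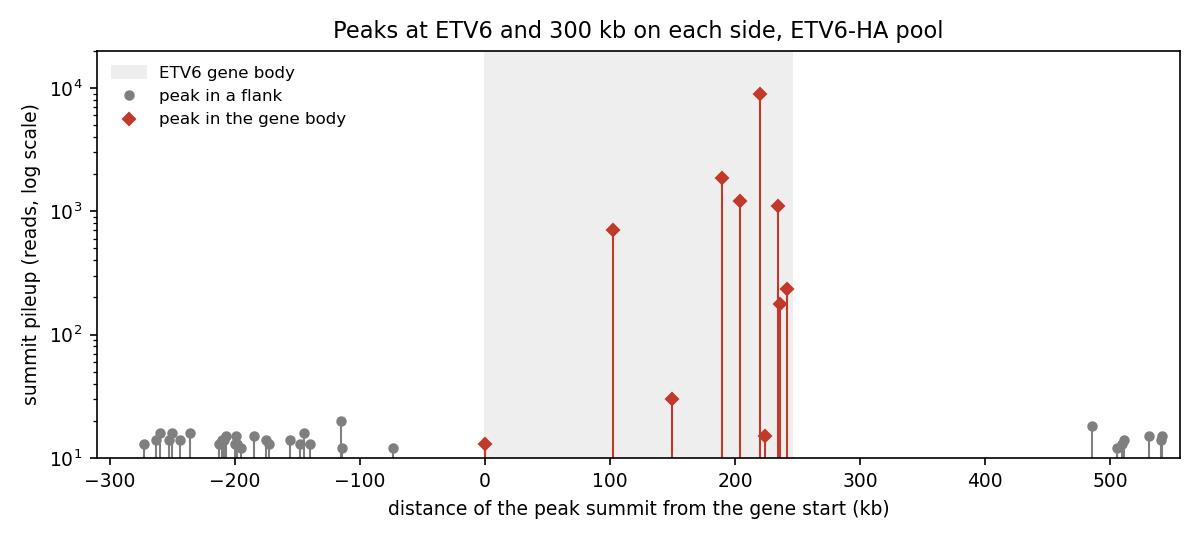
Summit pileup in reads (log axis) of each listed peak against the distance of its summit from the ETV6 gene start in kb, for the gene body (red diamonds, shaded interval) and 300 kb on each side (grey circles), in the pooled ETV6-HA library. The 7 tall members lie between 176 and 8853 reads, while the flank peaks lie between 12 and 20.

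The remaining 2 members lay between tall ones and were low. Peak 3, at chr12:11951887-11952090, was 204 bp wide with its summit at 11951978, and had 30 reads, a fold of 5.86 and a −log10 q of 11.82. By fold it came 904th in the list. In the list 60 other peaks had exactly 30 reads over that background. Their median width was 260.5 bp, and 12 of them were narrower than peak 3.

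Peak 7, at chr12:12026754-12026854, was 101 bp wide with its summit at 12026814, 15 reads, a fold of 3.03 and a −log10 q of 1.94. It lay 3.83 kb after the tallest member and 10.5 kb before peak 8. Of 50518 peaks with the same 15 reads at the shared background, 34.4% were narrower, and their median width was 114 bp. Each of the 3 low members had a width inside the range that held the middle 90% of other peaks of its height, which was 53 to 136 bp for peak 1, 173.8 to 418.3 bp for peak 3 and 64 to 203 bp for peak 7.

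ETV6 is taken here to have 8 exons. No exon table of hg19 was used, so overlap with exons, their order and their lengths were not analysed, and the members are not called exonic or intronic. The tall members numbered 7, and with the low peak at the gene start the count was 8, but that count takes 1 low peak and leaves the other 2 out. The 7 tall widths summed to 1611 bp, or 0.656% of the interval. All 10 members covered 2014 bp (0.82%), and the other 99.2% of the gene body had no listed peak.

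Apart from peak 6, the tall members varied less in width than in height. The 6 ran from 126 to 214 bp, a 1.7-fold range, while their pileups ran from 176 to 1845 reads, a 10.5-fold range. The distance from the start of a peak to its summit ran from 81 to 103 bp. It was 87 bp in peak 2, 103 bp in peak 4, 88 bp in peak 5, 91 bp in peak 8, 84 bp in peak 9 and 81 bp in peak 10. From summit to end the distances were 87, 110, 95, 94, 41 and 53 bp in the same order, so peaks 9 and 10 were shorter on the side towards the gene's end. Peak 6 reached 376 bp before its summit and 214 bp after it. Over the 7 tall members Spearman's rho of width with pileup was 0.964, a description over 7 neighbouring places of 1 library.

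**Figure D2:**
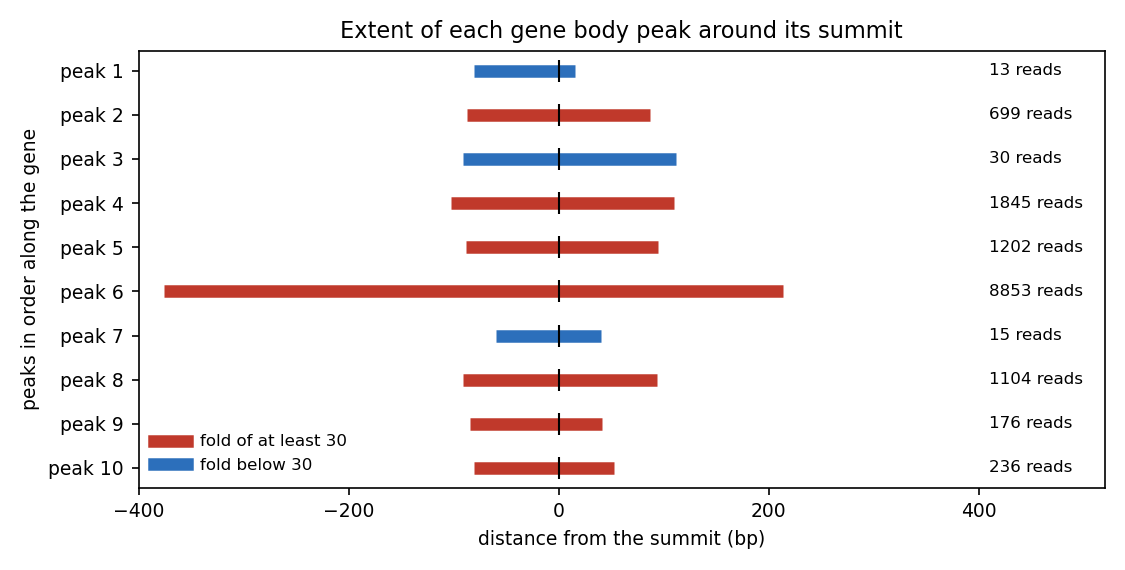
Extent in bp of each of the 10 gene body peaks to both sides of its summit (black tick), in order along the gene, with the pileup at the right (red, fold of at least 30, blue, below 30). The starts of 6 tall peaks lie 81 to 103 bp before the summit, and that of peak 6 lies 376 bp before it.

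The tall members were high for their width. As a measure of shape, 2 times the pileup was divided by the width of the peak. This height-to-width ratio is not the slope of a peak's sides, since the edges of a called peak lie at the caller's limit and not at 0 reads. It was 30 reads per bp in peak 6, 17.2 in peak 4, 13.1 in peak 5, 11.9 in peak 8, 7.99 in peak 2, 3.5 in peak 10 and 2.79 in peak 9. Elsewhere in the list 24 peaks at the shared background had at least 100 reads, and their ratio ran from 0.251 to 1.11 reads per bp, with a median of 0.53. None of the 24 reached the lowest ratio of the tall members. They were also lower, at 101 to 210 reads, so heights matched only at the lower end of the gene body range.

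At that lower end shapes could be set side by side at like height. Peaks 9 and 10, with 176 and 236 reads, were 126 and 135 bp wide. Of the 24, 7 had at least 150 reads, and these were 377 to 1030 bp wide, with a median of 590 bp. The narrowest of the 7, chr5:17282973-17283349, was also the tallest of the 24, with 210 reads. The peak nearest in height to peak 9, chr17:8982704-8983733 with 175 reads, was the widest of the 24. From start to summit the 24 measured 124 to 586 bp, against 81 to 103 bp in the 6 tall members other than peak 6.

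Tall, narrow peaks were not particular to ETV6. Elsewhere 90 peaks had at least 100 reads and a background above the shared level, with pileups of 101 to 8697 reads. Their ratio ran from 0.101 to 24.6 reads per bp, and in 20 of them it was at least that of peak 9. By pileup the tall members other than peak 6 ranked from 9th (peak 4) to 64th (peak 9) in the list. Of these 90, 18 had 150 to 250 reads, with widths of 100 to 456 bp and a median of 218.5 bp. Among those 18, 8 were no wider than the 214 bp of peak 4, and 1 was no wider than peak 10. The 90 peaks had backgrounds of 5.17 to 2556 reads and folds of at most 18.8. In the 18 the backgrounds were 11.75 to 126 reads and the folds at most 16.3. By contrast, 6 of the 7 tall members had the shared background, and peak 6 had 17.9 reads.

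**Figure D3:**
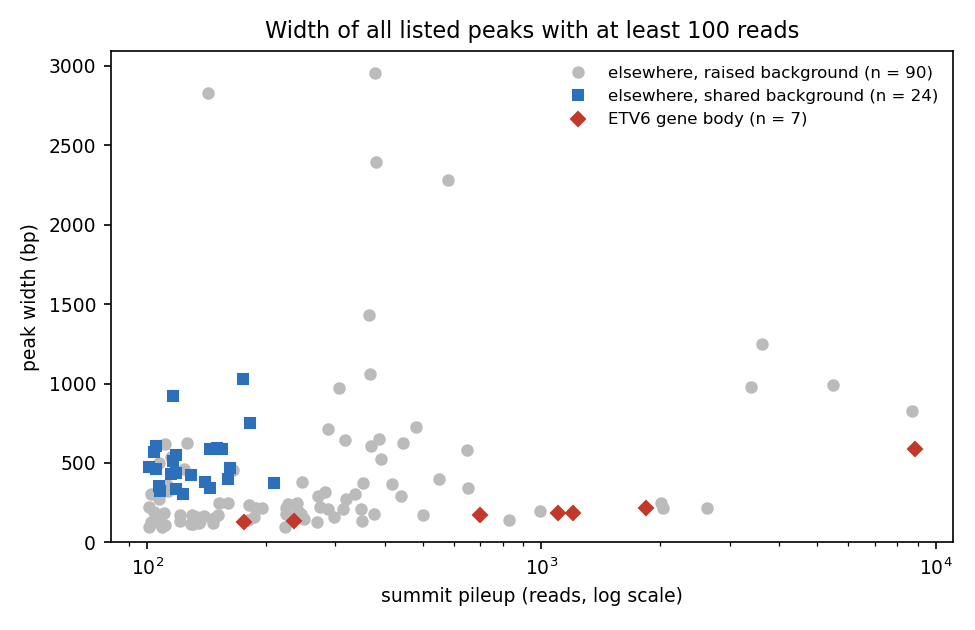
Width in bp against summit pileup in reads (log axis) for every listed peak with at least 100 reads, as red diamonds for the ETV6 gene body (n = 7), blue squares for peaks elsewhere at the shared background (n = 24) and grey circles for peaks elsewhere with a raised background (n = 90). Of the red diamonds, 6 lie at 126 to 214 bp, below all blue squares, which start at 303 bp.

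The background at the members bears on the control arm. Recovered from the fold and the p-value, it was 4.29 reads at 9 of the 10 members, the level that 95.8% of all listed peaks shared and the lowest that occurred. Between that floor and 20 reads, 92.6% of backgrounds were a multiple of 0.47 reads, to within 0.05 of it, and this step is read here as 1 control read scaled to the tagged library. On that reading the floor allows at most 9 control reads, and peak 6, with a background of 17.9 reads, had 38 control reads against 8853 tagged reads. At peaks 2, 4, 5, 8, 9 and 10 the control had at most 9 reads against 176 to 1845 in the tagged library. These counts are not scaled for depth, and on the same reading the control was 2.13 times as deep as the tagged library. Whether several reads with the same start were kept is not given in the sources used here. The pileups may therefore count copies of a fragment. Cells of both arms had been given an ETV6 vector, but vector copies per cell were not compared between the arms. That the control of the caller was the untagged pool is assumed, since its use is not given in the sources used here. Peak edges were not set against exon edges, since no exon table of hg19 was used. Reads from vector DNA and reads from bound chromosome were therefore not told apart here. The part of either in these heights was not tested.

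The gene body held more of the signal of chromosome 12 than of its peaks. The gene body made up 0.184% of the span of the chromosome's peaks and held 0.0666% of its peaks, yet 3.28% of the summed fold and 8.52% of the summed reads above background at summits (14117 of 165680). Of the whole list it held 0.431% of those reads. By fold, 6 of the 7 tall members came before every peak outside the gene, and peak 9 was ninth, after chr5:17282973-17283349 (39.9) and chr19:13266364-13267112 (34.6) and before chr17:8982704-8983733 (33.3). On chromosome 12 outside ETV6 the largest fold was 18.2, at chr12:104299472-104299893 (95 reads, 422 bp), followed by 17.2 at chr12:113645980-113646644 and 15.7 at chr12:51762692-51763066.

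Around the tall members, weak peaks were scarce. The low members of the gene body numbered 3, or 12.2 per Mb (exact Poisson 95% interval 2.52 to 35.7, counting error over peaks only), against 112 per Mb on chromosome 12 without the gene body and 113 on the autosomes. With the tall members the gene body had 40.7 per Mb (19.5 to 74.9). The flank before the gene had 83.3 per Mb (53.9 to 123) and that after it 23.3 (9.38 to 48.1).

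The scarcity did not stop at the gene's ends. Between the peak ending at 11688212 and the one starting at 12288130, a stretch of 599.9 kb marked out after the positions were seen, there were 11 peaks, the 7 tall members and 4 low ones. Those 4 amount to 6.67 per Mb (1.82 to 17.1), and 3 of them were peaks 1, 3 and 7. The other, chr12:11729144-11729203, had 12 reads, a −log10 q of 1.07 and a width of 60 bp, and was the flank peak nearest to the gene start, 73.6 kb away. Beyond the stretch the rest of the flank before the gene held 24 peaks in 185.4 kb (129 per Mb), and the rest of the flank after it 7 in 60.2 kb (116 per Mb). Both ends of the stretch were set where peaks stood, so these densities are not independent estimates. The number of copies of this stretch in the cells is not given by the peak list. Its part in the scarcity was not tested.

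After peak 10 no peak was listed for 244 kb, 240 kb of it beyond the end of the gene. Among the 15025 gaps between neighbouring peaks of chromosome 12, which had a median of 4.38 kb, this was the fifth longest. The longest was 3072 kb and the next 279 kb. When the chromosome was laid out in 544 windows of the gene's length, the median window held 23 peaks and 15 windows held 3 or fewer, 11 of them none. Of the 544, 100 held 10 or fewer, the number in the gene body with the tall members counted. The 11 empty windows lay within the single gap of 3072 kb, and they are counted in both the 15 and the 100.

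The flank peaks themselves were weak. In the 25 before the gene the lowest pileup was 12 reads, the median 14 and the highest 20, and in the 7 after it 12, 14 and 18. The strongest before the gene was chr12:11687685-11688073, with 20 reads over a background of 5.17, a fold of 3.4, a −log10 q of 3.27 and a width of 389 bp, followed by chr12:11543201-11543303 and chr12:11552350-11552452 with 16 reads each. The strongest after the gene, and the nearest to it, was chr12:12288130-12288248, with 18 reads, a fold of 3.59, a −log10 q of 3.26 and a width of 119 bp. Next came chr12:12334105-12334182 and chr12:12344139-12344243 with 15 reads each. No flank peak reached the 30 reads of peak 3. Peak 3 was the tallest listed peak of the whole 300 kb surroundings apart from the 7 tall members.

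**Figure D4:**
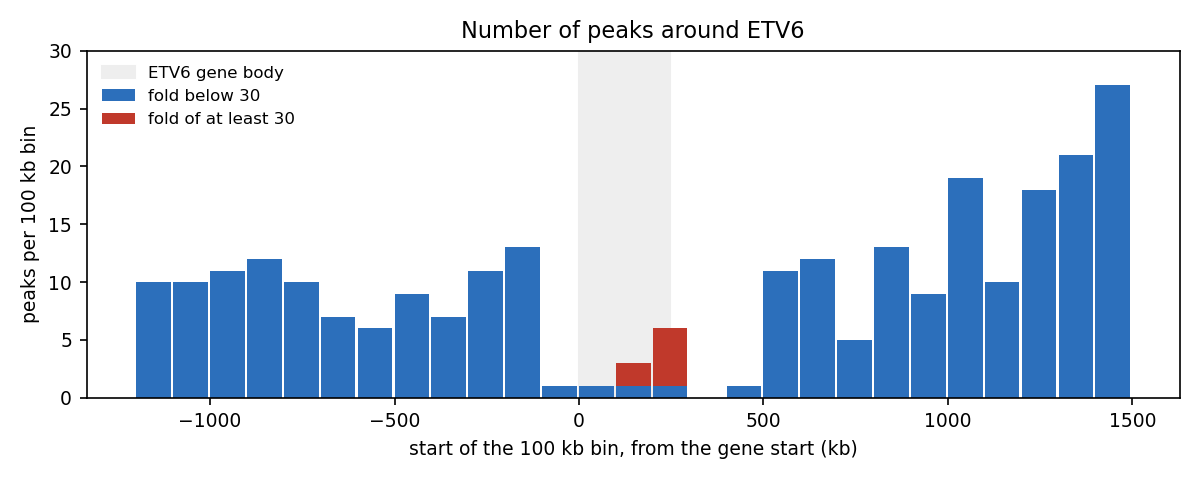
Number of listed peaks per 100 kb bin against the start of the bin relative to the ETV6 gene start in kb, with folds below 30 in blue and of at least 30 in red, and the gene body shaded. From 100 kb before the gene start to 500 kb after it no bin has more than 1 blue peak, while the bins beyond hold 5 to 27.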

How the data were processed

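Chromatin immunoprecipitation with anti-HA beads was sequenced in 2 pools, ETV6-HA and untagged ETV6. The groups are the transduction labels, 1 pool each, and the pooling comes from the titles. The submitters' processing notes name MACS2 (2.1.1.20160309), Bowtie2 (2.2.3) and hg19. What each did, and with which settings, is not given in the sources used here. The authors deposited 1 peak list, of the tagged pool. Its deposited fold column is a linear ratio over local background, and its deposited −log10 columns hold the summit's p and q, the lowest −log10 q being 1.01. In 100% of peaks the deposited score repeated −log10 q, times 10 and cut to a whole number. The other deposited columns hold positions.

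Pileup and background were solved from fold = (pileup + 1)/(background + 1) and the Poisson tail. Pileups came out whole within 0.05 in 99.9997% of peaks, all but 1. On 20000 peaks simulated with the same formula 100% were recovered, which tests the solving step only. The shared background is that within 0.005 of 4.29 reads. Library depth is not given by the list, apart from the ratio read from the background steps, so depth is stated as pileup at each summit. Peaks are named by a rule: all members, the 3 strongest by q and the nearest in each flank, and the 3 largest folds outside the gene, on chromosome 12 and in the list. Peaks nearest to the fold limit are named as well. Members, limits and comparisons were chosen with earlier results of these data known. No test was made. Alternatives were stricter q, other limits of fold, pileup and flank, and other ways to assign a peak. ETV6 was matched by symbol to 1 RefSeq promoter. Python 3.11.15 was used with scipy 1.17.1, matplotlib 3.10.9, pandas 2.3.3 and numpy 2.4.6.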

Additional observations from a re-analysis of the deposited data

How the results depend on the processing

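Of 30 alternatives, 6 of them added after the data were seen, 22 left a value within its interval (or, for counts, summed widths and shares, within 1.5 times) and 8 moved it. The values have no direction to reverse. The gene body held 8 peaks at q of at most 0.01, and its 7 tall members at a fold of at least 20 or 10 or a pileup of at least 100 reads. The density of both flanks together, 53.3 peaks per Mb, was 5 with 100 kb on each side and 87 with 1 Mb, since the nearer window lies in the stretch with few peaks. The median width of tall peaks elsewhere, 467.5 bp, was 352.5 bp from 50 reads and 305.5 bp with any background, and their height-to-width ratio, 0.53 reads per bp, was 0.38 and 1.57. The share of the summed fold of chromosome 12, 3.28%, was 12.6% at q of at most 0.01, which keeps fewer weak peaks. By reads above background at summits it was 8.52%. Overlap with exons and spacing of exons were not run for want of an exon table, and no replicate could be left out. No paired analysis was possible because each arm is 1 pool. Peaks under 12 reads are not listed, so a stretch without peaks is not a stretch without reads.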
